A study of Mus musculus with 6 samples.

Results

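The proteasome genes of liver were compared between 3 mice that carried a Retnla transgene (Retnla-Tg 5, 6 and 7, called Tg) and 3 mice without it (Retnla-non-Tg 1, 2 and 3, called non-Tg). Genes were taken by name: a probe set counted when its platform annotation gave a single symbol that began with Psma, Psmb, Psmc, Psmd, Psme or Psmg and a number. This found 48 genes on 99 probe sets, out of 18193 genes with a single-symbol probe set. Of the 48, 46 encode proteasome subunits, activators or assembly factors, and 44 of these had enough signal to be tested, among 12705 genes tested in all. Psma8 and Psmb11, known as the testis and thymus forms of an alpha and a beta subunit, lay below the limit on signal. Psmc3ip, a cofactor of meiotic recombination, and Psme3ip1, a partner of Psme3, carry such names without being subunits. They were kept out of every later count except those of kept and changed signs at the end.

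The Tg mice carried the Retnla transgene, and the non-Tg mice were the non-transgenic controls. All 6 were male, 3 months old and on the C57BL6/J background, and all had spent their last 4 weeks on a high-fat feed holding 21% fat and 0.15% cholesterol, begun at 8 weeks of age; no group on standard feed was analysed here. The promoter that drives the transgene, and whether the mice were littermates, were not stated in what was available here. One Affymetrix Mouse Genome array was made from the liver of each mouse. Retnla, a secreted protein of the resistin family, had log2 signals of 16.04, 15.91 and 16.04 in Tg 5, 6 and 7, against 6.03, 7.41 and 6.48 in non-Tg 1, 2 and 3, which matches every label (log2 difference 9.36, SE 0.28, limma adjusted p = 4.07e-07). Among the hepatocyte genes Alb, Apoa1, Ttr and Cps1, no signal was below 15.67 in any of the 6 livers. Tat, an amino acid enzyme also on the hepatocyte list, had 14.51, 15.33 and 15.10 in Tg livers, against 13.74, 13.50 and 14.36 in non-Tg livers, without overlap (log2 difference 1.12, adjusted p = 0.468).

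Signals are log2 values as deposited, so a difference of 1 is a doubling, and each difference is the mean of the 3 Tg mice minus the mean of the 3 non-Tg mice. Each gene was read from its probe set of highest mean, and adjusted p-values come from limma over all 12705 genes, with 0.05 as the threshold. The array medians ran from 6.49 (non-Tg 2) to 6.74 (Tg 5). The bioC control, a bacterial transcript added before hybridisation, split the arrays into a lower set of Tg 5, Tg 6 and non-Tg 1 and a higher set of Tg 7, non-Tg 2 and non-Tg 3. Both sets hold both genotypes, so values within each set are given for most of the genes shown by mouse. These values rest on a single mouse on one side: non-Tg 1 in the lower set and Tg 7 in the higher set.

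The proteasome is the barrel-shaped protease that degrades most ubiquitin-tagged proteins in the cytosol and nucleus. Its core particle stacks rings of alpha subunits, which form the gate, on rings of beta subunits, which hold the proteolytic sites; a regulatory particle on either end recognises ubiquitin chains, removes them and threads the substrate inward with a ring of ATPases. In cells exposed to interferon, and constitutively in many leukocytes, the catalytic subunits Psmb5, Psmb6 and Psmb7 are replaced by Psmb8, Psmb9 and Psmb10, which gives the immunoproteasome and favours peptides for MHC class I. The subunit genes are known to be transcribed together under the factor Nfe2l1, which binds antioxidant response elements, and the immunoproteasome genes under interferon-responsive factors.

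The start regions of 6 genes are shown because each holds letters of a motif for Nfe2l1, for an interferon-responsive factor or for ETS factors, which bind many housekeeping promoters, and each gene is described below. They were chosen for holding a match. Each runs from 140 bases before to 25 bases after the RefSeq transcription start (GRCm38.p6), on the gene's own strand, with the matched letters in capitals. The genome positions are chr11:97703294-97703458 (plus strand) for Psmb3, chr14:54617971-54618135 (minus strand) for Psmb5, chr14:45329684-45329848 (plus strand) for Psmc6, chr16:20651512-20651676 (plus strand) for Psmd2, chr17:34198055-34198219 (plus strand) for Psmb8 and chr14:55578354-55578518 (plus strand) for Psme1.
Psmb3: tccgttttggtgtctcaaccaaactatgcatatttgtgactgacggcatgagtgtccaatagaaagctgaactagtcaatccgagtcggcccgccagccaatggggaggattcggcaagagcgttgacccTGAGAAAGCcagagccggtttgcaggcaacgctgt
Psmb5: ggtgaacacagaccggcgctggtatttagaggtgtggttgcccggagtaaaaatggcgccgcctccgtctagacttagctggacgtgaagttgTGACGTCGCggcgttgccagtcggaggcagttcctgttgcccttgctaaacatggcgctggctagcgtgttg
Psmc6: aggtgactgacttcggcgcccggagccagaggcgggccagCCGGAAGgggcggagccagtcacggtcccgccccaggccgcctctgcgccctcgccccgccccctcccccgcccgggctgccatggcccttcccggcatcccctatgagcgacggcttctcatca
Psmd2: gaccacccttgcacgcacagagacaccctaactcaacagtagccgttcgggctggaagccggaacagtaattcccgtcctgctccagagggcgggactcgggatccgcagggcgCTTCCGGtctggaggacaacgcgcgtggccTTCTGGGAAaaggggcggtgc
Psmb8: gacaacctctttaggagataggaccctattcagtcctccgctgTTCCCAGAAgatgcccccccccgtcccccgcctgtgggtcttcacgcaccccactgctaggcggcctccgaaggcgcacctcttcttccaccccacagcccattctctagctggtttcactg
Psme1: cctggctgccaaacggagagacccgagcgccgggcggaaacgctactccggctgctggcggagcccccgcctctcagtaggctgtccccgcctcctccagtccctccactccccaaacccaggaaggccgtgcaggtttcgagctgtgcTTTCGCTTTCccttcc

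The capitals mark the G form of the antioxidant response element (TGAGNNNGC) in Psmb3 and its C form (TGACNNNGC) in Psmb5. They mark the ETS motif (CCGGAAG) in Psmc6 and, read on the other strand, as the first match in Psmd2. The gamma-activated site (TTCNNNGAA) is the match in Psmb8 and the second match in Psmd2, and the interferon-stimulated response element (GAAA, NN, GAAA) is read on the other strand in Psme1. RefSeq promoters of 300 bases, 250 before and 50 after a start, were found for 38 of the 46 genes and gave 40 promoters, which were searched on both strands beside all 32851 promoters of the table; matches of different motifs could overlap. CCGGAAG was in 15 of the 40 (37.5%), against 8.86% of all promoters, and the interferon-stimulated response element in 5 (12.5%), against 3.44%. Those 5 belonged to Psmb3, Psmd4, Psmd9, Psme1 and Psmg4. Neither Psmb8 nor Psmb9, whose promoters were also searched, held that element. TGAGNNNGC was in 13 (32.5%), against 17.6%, and the GC box GGGCGG in 22 (55%), against 35.7%. Near the share in all promoters were TGACNNNGC in 6 (15%, against 12.4%), TTCNNNGAA in 3 (7.5%, against 8.3%), the NF-Y motif CCAAT in 14 (35%, against 37.4%) and the heat shock letters GAANNTTC in 2 (5%, against 7.86%). Promoters of many housekeeping genes are rich in G and C, base composition was not matched here, and a match is no evidence of binding.

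No proteasome gene passed the threshold: adjusted p-values of the 44 ran from 0.753 to 0.997, where 0.0157% of all genes passed. The differences were small, and their signs were not the same in all subcomplexes, though no test of subcomplex against subcomplex was made. Of the 44 genes, 31 (70.5%) had a lower mean in Tg livers, against 47.9% of all genes, and the median log2 difference was -0.10, against 0.01 over all genes. The 31 subunits of the alpha ring, beta ring, base and lid had a median of -0.14 with 27 below 0, whereas all 3 immunoproteasome subunits had positive differences with a median of 0.34. That median was 0.02 without Tg 6 and -0.18 within the higher bioC set. The 7 assembly chaperones lay on both sides of 0.

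Groups that did not overlap, with every Tg mouse below every non-Tg mouse, were seen for 12 of the 44 genes (27.3%), against 5.64% of all genes. The opposite separation was seen for 2 genes (4.55%), against 6.04%, and separation either way in 11.7% of all genes. With every array centred on its median, the 14 members with separated groups were 3, against 10.2% of all genes. In that setting 35 of the 44 had a lower mean in Tg livers, and the median difference of all genes was -0.06. With quantile normalization 10 members had separated groups, against 11.8% of all genes. At an unadjusted p under 0.05, 6 genes were lower (13.6%, against 3.12% of all genes) and 1 was higher (2.27%, against 2.93%); in either direction 6.05% of all genes did so. Without Tg 7 this count of 7 was 14, with 9.39% of all genes under 0.05. It was 3 without Tg 5 (6.23% of all genes), 4 without Tg 6 (4.59%), 2 without non-Tg 2 (3.69%) and 3 without non-Tg 3 (4.25%), and stayed at 7 without non-Tg 1. With no intensity trend in the variance model it was 1, against 5.48% of all genes. The genes share the same 6 arrays, so their counts are not independent observations.

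**Figure D1:**
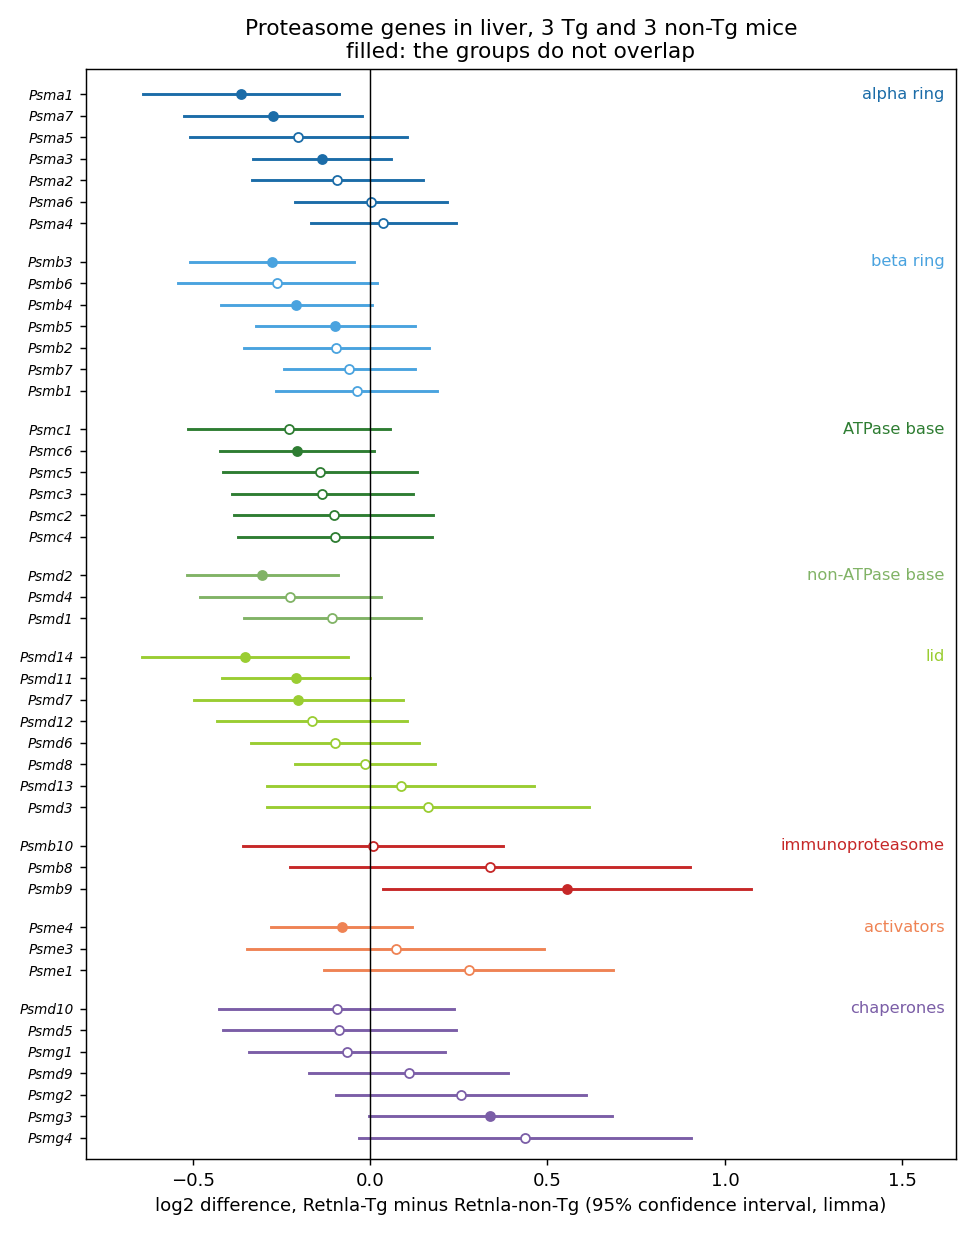
Log2 difference (Tg minus non-Tg) of the 44 tested proteasome genes on the horizontal axis, grouped by subcomplex down the page; bars are 95% confidence intervals of the limma fit and filled points mark genes whose groups did not overlap. Points of the rings, base and lid lie mostly left of 0, between -0.36 (Psma1) and 0.16 (Psmd3), and Psmb9 lies farthest right at 0.56.

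In the alpha ring, 5 of 7 tested genes had a lower mean in Tg livers, with a median log2 difference of -0.14, which was -0.08 without Tg 5 and -0.07 without non-Tg 2. Psma1, a structural subunit of the ring, had signals of 12.12, 12.22 and 12.46 in Tg 5, 6 and 7, against 12.47, 12.77 and 12.65 in non-Tg 1, 2 and 3. The groups did not overlap, though Tg 7 and non-Tg 1 lay side by side. The difference was -0.36 (SE 0.12, 95% interval -0.64 to -0.09), or 0.778-fold, with an adjusted p of 0.779. It was -0.30 within the lower bioC set and -0.25 within the higher set. Psma7, another gate-ring subunit, read 11.72, 11.76 and 11.85 in the Tg mice, against 11.93, 12.22 and 12.00 in the non-Tg mice. All 3 Tg values were below the lowest non-Tg value, and the difference was -0.27 (SE 0.11, adjusted p = 0.807), with -0.19 in the lower and -0.26 in the higher bioC set. A further probe set of Psma7 gave -0.33. Psma3, a further ring subunit, had 13.46, 13.60 and 13.65 in Tg livers, against 13.67, 13.77 and 13.68 in non-Tg livers; the groups were apart, but by less than the range among Tg mice, and the difference was -0.14 (SE 0.09, adjusted p = 0.826). Psma3 was at -0.14 in the lower and -0.07 in the higher bioC set. The other 4 tested genes had differences of -0.20 for Psma5, -0.09 for Psma2, 0.00 for Psma6 and 0.04 for Psma4, all with overlapping groups. The untested Psma8 had dim signals of 6.31, 5.87 and 5.84 in Tg livers, against 2.23, 2.90 and 5.95 in non-Tg livers.

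All 7 genes of the constitutive beta ring had lower means in Tg livers, against 47.9% of all genes. Their differences ran from -0.28 to -0.04 with a median of -0.10. The groups did not overlap for 3 of the 7, against 5.64% of all genes lower without overlap. Psmb5, the subunit with chymotrypsin-like activity, read 12.36, 12.60 and 12.59 in Tg mice and 12.64, 12.60 and 12.60 in non-Tg mice. Its groups came apart only in the third decimal, and the difference of -0.10 (SE 0.10, adjusted p = 0.872) rested mostly on Tg 5. Psmb6, the caspase-like subunit, had 12.35, 12.51 and 12.76 in Tg livers, against 12.70, 12.96 and 12.75 in non-Tg livers. Tg 7 lay among the non-Tg values, and the difference was -0.26 (SE 0.13, adjusted p = 0.807). Psmb7, the trypsin-like subunit, had 13.98, 14.10 and 13.96 in Tg mice, against 14.06, 14.01 and 14.14 in non-Tg mice, and these values were interleaved (difference -0.06, adjusted p = 0.907). Within the lower and then the higher bioC set, Psmb5 was at -0.17 and -0.01, Psmb6 at -0.26 and -0.10, and Psmb7 at -0.02 and -0.11.

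Among the non-catalytic beta subunits, Psmb3 was lowest relative to the controls. It read 11.90, 11.97 and 12.14 in the Tg mice and 12.23, 12.26 and 12.34 in the non-Tg mice. The groups were apart and the difference was -0.28 (SE 0.10, 95% interval -0.51 to -0.04, adjusted p = 0.787), with -0.30 in the lower and -0.16 in the higher bioC set. A further Psmb3 probe set gave -0.34, with overlap. Psmb4, which joins the rings late in assembly, had 13.50, 13.65 and 13.77 in Tg livers, against 13.83, 13.92 and 13.79 in non-Tg livers. Tg 7 lay just under non-Tg 3, and the difference was -0.21 (SE 0.09, adjusted p = 0.807). Psmb4 was at -0.26 in the lower and -0.09 in the higher bioC set. Psmb2 (-0.10) and Psmb1 (-0.04) had overlapping groups.

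The 6 ATPases of the base, which unfold substrates, all had lower means in Tg livers, within a narrow span from -0.23 to -0.10 and with a median of -0.14. The median was -0.07 without non-Tg 2, -0.21 without non-Tg 3, -0.15 within the lower bioC set and -0.05 within the higher set. Psmc6 was the only one without overlap, with 12.02, 11.94 and 11.99 in the Tg mice and 12.20, 12.26 and 12.11 in the non-Tg mice. Each group was tight, and the difference was -0.20 (SE 0.10, adjusted p = 0.807), -0.22 within the lower bioC set and -0.19 within the higher set. Psmc1 had 11.43, 11.38 and 11.77 in Tg livers and 11.69, 11.81 and 11.77 in non-Tg livers. Tg 5 and Tg 6 were low and Tg 7 was not (difference -0.23, SE 0.13, adjusted p = 0.820). Psmc3 had 11.90, 12.01 and 12.10 in Tg livers, against 12.09, 12.31 and 12.02 in non-Tg livers, with overlap (difference -0.13, SE 0.11, adjusted p = 0.854). The lower and then the higher bioC set gave -0.28 and -0.02 for Psmc1 and -0.14 and -0.06 for Psmc3. Psmc5 was at -0.14 and both Psmc2 and Psmc4 were at -0.10. For Psmc2 a further probe set, almost as bright, gave -0.32 with every Tg mouse below every non-Tg mouse, so its size depended on which probe set was read.

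The scaffold and ubiquitin receptor subunits of the base included the gene of smallest p among all members. Psmd2, a scaffold to which ubiquitin receptors and deubiquitinases dock, read 12.02, 12.16 and 12.18 in Tg 5, 6 and 7, against 12.42, 12.42 and 12.43 in non-Tg 1, 2 and 3. The non-Tg mice were nearly identical, and every Tg mouse was lower by more than the range within either group. The difference was -0.30 (SE 0.10, 95% interval -0.52 to -0.09), or 0.810-fold, with an adjusted p of 0.753; it was -0.33 in the lower bioC set and -0.25 in the higher set. Psmd4, a ubiquitin receptor, had 11.93, 11.88 and 12.20 in Tg mice and 12.18, 12.28 and 12.22 in non-Tg mice. Tg 7 overlapped the controls, and the difference was -0.22 (SE 0.11, adjusted p = 0.816); a second bright probe set gave -0.20 and a dim one 1.05. Psmd1, the other large scaffold, had 11.94, 11.97 and 12.16 in Tg livers, against 12.18, 11.99 and 12.22 in non-Tg livers, with overlap (difference -0.11, adjusted p = 0.873). The lower and then the higher bioC set gave -0.28 and -0.05 for Psmd4 and -0.23 and 0.06 for Psmd1.

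In the lid, which carries the deubiquitinase that strips ubiquitin from substrates, 6 of 8 genes had lower means in Tg livers, against 47.9% of all genes. The groups did not overlap for 3 of the 8, all lower in Tg livers, against 5.64% of all genes. The median was -0.13, and -0.08 without Tg 5. Psmd14 encodes that deubiquitinase. It read 11.42, 11.58 and 11.85 in the Tg mice and 11.88, 12.06 and 11.97 in the non-Tg mice. Tg 7 lay just below non-Tg 1, and the difference was -0.35 (SE 0.13, 95% interval -0.64 to -0.06), or 0.783-fold, with an adjusted p of 0.787. It was -0.38 in the lower and -0.17 in the higher bioC set. Psmd11, a lid subunit that bridges to the core particle, had 13.24, 13.49 and 13.35 in Tg livers, against 13.51, 13.61 and 13.60 in non-Tg livers. The groups were apart by little, with a difference of -0.21 (SE 0.09, adjusted p = 0.807), and 3 further probe sets of the gene gave -0.04, -0.29 and -0.17. Psmd7, the inactive partner of Psmd14, had 10.62, 10.95 and 10.94 in Tg mice, against 10.97, 11.13 and 11.02 in non-Tg mice; Tg 5 was the low one (difference -0.20, SE 0.13, adjusted p = 0.826). In the lower and then the higher bioC set, Psmd11 was at -0.14 and -0.25 and Psmd7 at -0.18 and -0.13. Among the other lid genes, Psmd12 was at -0.16, Psmd6 at -0.10, Psmd8 at -0.01, Psmd13 at 0.09 and Psmd3 at 0.16.

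**Figure D2:**
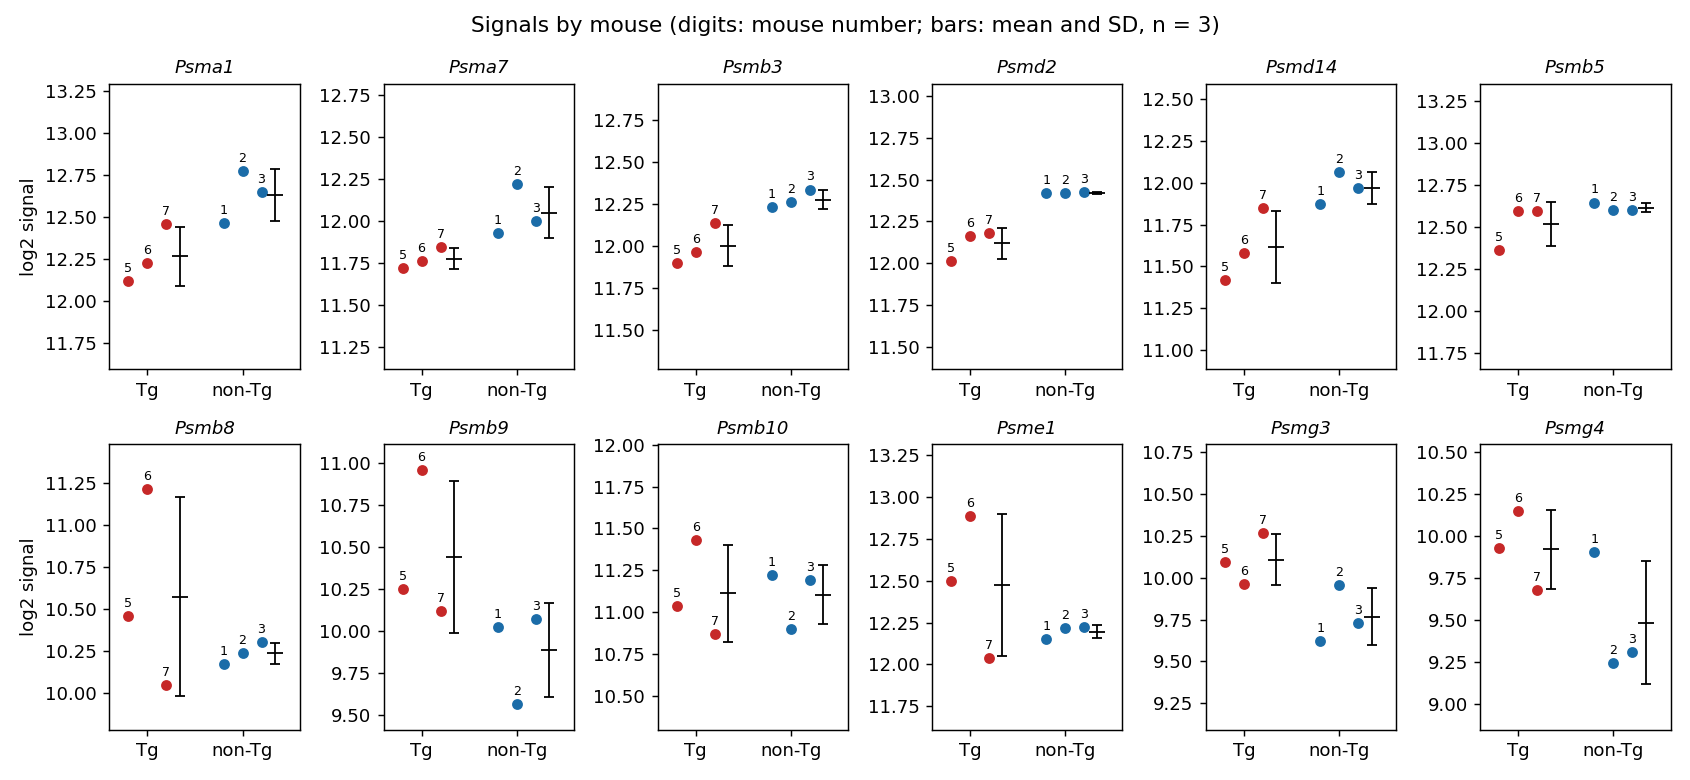
Log2 signal (vertical axis) of 12 proteasome genes in each mouse, Tg mice left of non-Tg mice, with each point numbered by mouse and the bar giving mean and SD (n = 3 each). Psmd2 separates the groups with almost no spread in non-Tg mice, and Psmb8, Psmb9 and Psme1 show Tg 6 far above the other mice.

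The immunoproteasome subunits had positive differences, and Tg 6 was the highest mouse for all 3. Psmb9, the replacement for Psmb6, had 10.25, 10.96 and 10.12 in Tg 5, 6 and 7, against 10.02, 9.57 and 10.07 in non-Tg 1, 2 and 3. The groups were apart, with Tg 6 high and non-Tg 2 low, and the difference was 0.56 (SE 0.23, 95% interval 0.04 to 1.08), or 1.47-fold, with an adjusted p of 0.807. Psmb8, the replacement for Psmb5, read 10.46, 11.22 and 10.04 in the Tg mice and 10.17, 10.23 and 10.30 in the non-Tg mice. Tg 7 was the lowest of all 6 mice and Tg 6 the highest, so the difference of 0.34 (SE 0.25, adjusted p = 0.841) was smaller than the spread among Tg mice. Psmb10, the replacement for Psmb7, had 11.04, 11.43 and 10.87 in Tg livers, against 11.22, 10.90 and 11.19 in non-Tg livers, and did not separate them (difference 0.01, SE 0.16, adjusted p = 0.997). Without Tg 6 the differences were 0.30 for Psmb9, 0.02 for Psmb8 and -0.15 for Psmb10. Within the lower bioC set, which holds Tg 6, they were 0.58, 0.66 and 0.01 in the same order, and within the higher set 0.30, -0.22 and -0.18. The untested Psmb11 had 6.67, 3.59 and 6.64 in Tg livers and 5.83, 4.48 and 4.03 in non-Tg livers.

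Among the activators, which open the gate without ATP, Psme1 followed the same mice. Psme1, a subunit of the interferon-inducible cap, had 12.50, 12.88 and 12.04 in Tg mice, against 12.15, 12.21 and 12.22 in non-Tg mice. Non-Tg mice were close together while Tg 6 was the highest and Tg 7 the lowest of all (difference 0.28, SE 0.18, adjusted p = 0.826). The difference was 0.07 without Tg 6, 0.54 within the lower bioC set and -0.18 within the higher set. The usual partner of Psme1 in the cap, Psme2, shares its probe set with Psme2b and so was not counted. That probe set read 11.95, 12.11 and 11.58 in Tg livers, against 11.90, 11.96 and 11.92 in non-Tg livers. Tg 6 was again highest and Tg 7 lowest, but the difference was -0.05. Psme3, the nuclear activator, had 9.46, 9.85 and 9.24 in Tg livers and 9.55, 9.51 and 9.27 in non-Tg livers, with full overlap (difference 0.07, adjusted p = 0.959); a further probe set of similar brightness gave 0.77. Psme4, a large single-chain activator, had 12.52, 12.56 and 12.62 in Tg mice, against 12.64, 12.68 and 12.63 in non-Tg mice. Every Tg value was lower, by a margin much smaller than the spread within either group (difference -0.08, SE 0.09, adjusted p = 0.875). In the lower and then the higher bioC set, Psme3 was at 0.10 and -0.15 and Psme4 at -0.10 and -0.03. The median of the 3 activators was 0.07, and -0.08 without Tg 6, -0.01 without non-Tg 3 and 0.21 without Tg 7.

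Many genes of antigen presentation, macrophage markers, some lymphocyte markers and endothelial markers were highest in Tg 6 as well. Over all genes tested, Tg 6 was highest in 16.6%. Few stellate, bile duct and red cell markers were tested, and of these only Krt19 of the bile duct was highest in Tg 6. Of 12 antigen presentation genes 11 were tested, 8 had positive differences and 0 had an unadjusted p under 0.05; the median was 0.11, and Tg 6 was the highest mouse for 8 of the 11. Tapbp, the tapasin bridge of the peptide-loading complex, had 12.23, 12.80 and 12.04 in Tg mice, against 12.13, 12.02 and 12.15 in non-Tg mice (difference 0.26, adjusted p = 0.829, and 0.04 without Tg 6). Tap1, a peptide transporter subunit, had 9.87, 10.32 and 9.24 in Tg mice, against 9.52, 9.64 and 9.21 in non-Tg mice (difference 0.35, adjusted p = 0.838, and 0.10 without Tg 6). Calr, a chaperone of the same complex, ran against the list, with 13.99, 14.08 and 13.99 in Tg livers below 14.31, 14.11 and 14.18 in non-Tg livers (difference -0.18, adjusted p = 0.807). The lower and then the higher bioC set gave 0.39 and -0.04 for Tapbp and 0.58 and -0.19 for Tap1. Calr was at -0.28 and -0.15.

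Of 22 leukocyte markers 17 were tested, 13 had positive differences, the median was 0.24 and Tg 6 was highest for 10. Those 10 were Ptprc, Cd3g, Nkg7, Gzma and the macrophage markers Adgre1, Cd68, Csf1r, Clec4f, Cd163 and Marco. Other mice were highest for the B cell markers Cd79a, Cd79b and Ms4a1 and the neutrophil markers S100a8 and S100a9. The summed signal of the 17, as log2, ran from 13.5 to 14.8 over Tg mice and from 13.8 to 14.0 over non-Tg mice. Csf1r and Clec4f were the brightest of the 17. The T cell markers Cd3e and Cd3d lay below the limit on signal. Gzma, a granule protease of killer lymphocytes, had 6.99, 8.05 and 6.46 in Tg livers and 6.29, 5.17 and 5.85 in non-Tg livers, without overlap (difference 1.39, adjusted p = 0.787). Zap70, a T cell signalling kinase, had overlapping groups and was highest in Tg 5 (difference 0.47, adjusted p = 0.807). Of the other T and NK cell markers tested, Cd3g (1.12) and Nkg7 (2.31) had positive differences with overlap. Cd8a was at -0.09, with Tg 6 the lowest mouse. All 4 endothelial markers had positive differences and were highest in Tg 6, with summed log2 signals of 12.8 to 13.1 in Tg livers and 12.8 to 12.9 in non-Tg livers. Of the other cell types checked, the median was -0.52 for 3 stellate markers, -0.48 for 4 bile duct markers, 0.46 for the 1 red cell marker tested and 0.00 for 5 hepatocyte markers, Tat included, with none past the threshold. Among the stellate markers, Lrat (-0.93) and Reln (-0.52) were lower in Tg livers without overlap, and Col1a1 (0.15) overlapped. The red cell marker Alas2 was higher in Tg livers without overlap. Over all genes, 5.64% were lower and 6.04% higher without overlap. Tg 6 was the highest mouse for 0 of the 3 stellate, 1 of the 4 bile duct and 0 of the 1 red cell markers. The part of these cells in the immunoproteasome and Psme1 values was not tested. In whole liver, a difference in the number of cells of a type and in the RNA per cell cannot be told apart.

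**Figure D3:**
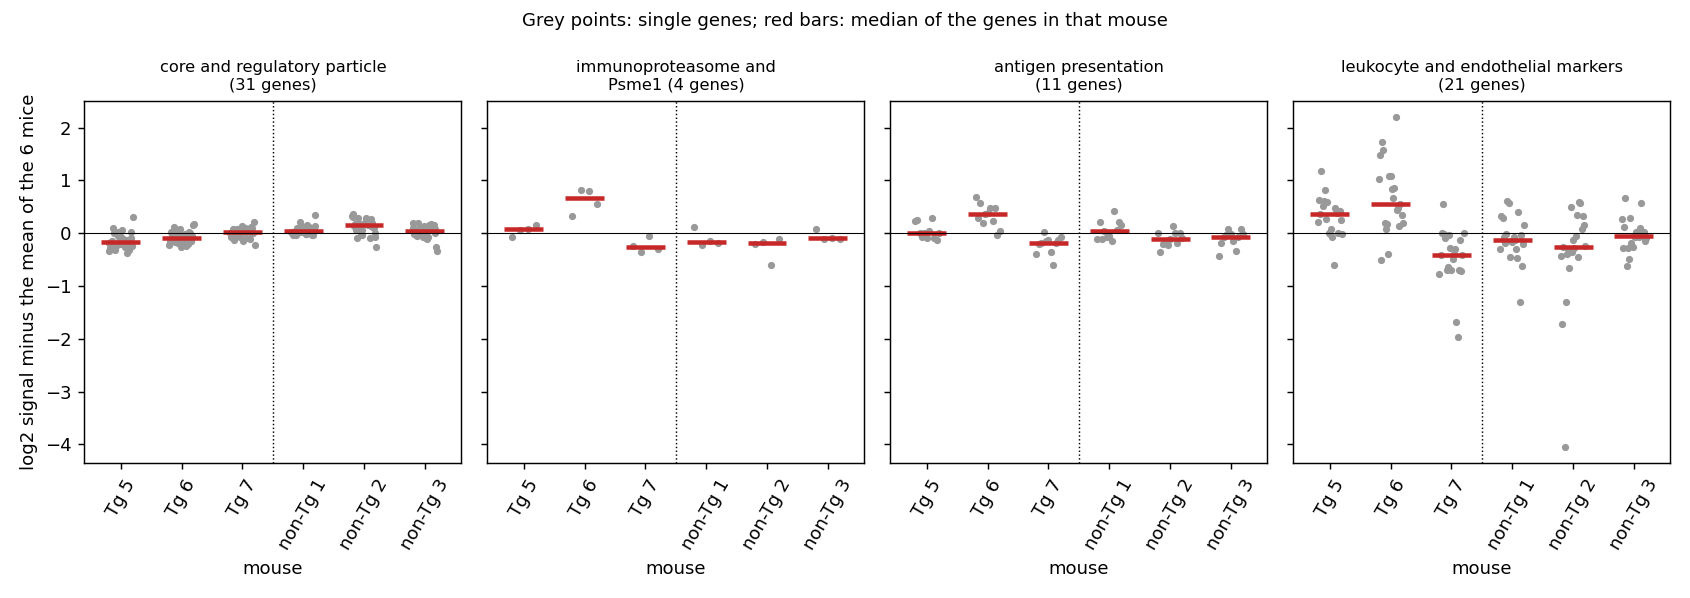
Deviation of each gene from its own 6-mouse mean (log2, vertical axis) in every mouse, Tg mice left, for the 31 subunits of rings, base and lid, the 4 genes of immunoproteasome and Psme1, 11 antigen presentation genes and 21 leukocyte and endothelial markers; the red bar is the median. Medians of the first group are lowest in Tg 5 (-0.17) and highest in non-Tg 2 (0.15), while those of the other groups are highest in Tg 6 (0.67, 0.36 and 0.55).

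The 7 assembly chaperones had a median difference of 0.11, which was 0.03 without Tg 5, with 4 above 0 and 3 below. Of the 4 Psmg chaperones, which build the alpha ring, 3 had positive differences, and the median of the 4 was 0.30. Psmg3 read 10.09, 9.96 and 10.27 in Tg mice and 9.62, 9.95 and 9.73 in non-Tg mice. The groups were apart by the small gap between Tg 6 and non-Tg 2, and the difference was 0.34 (SE 0.15, adjusted p = 0.807), 0.41 in the lower bioC set and 0.43 in the higher set. Psmg4, the partner of Psmg3, had 9.93, 10.15 and 9.68 in Tg livers, against 9.90, 9.24 and 9.31 in non-Tg livers. Non-Tg 1 lay among the Tg mice (difference 0.44, SE 0.21, adjusted p = 0.807, with 0.14 in the lower and 0.41 in the higher bioC set). Psmg2 had 9.98, 10.25 and 10.36 in Tg livers, against 9.86, 10.13 and 9.83 in non-Tg livers, with overlap (difference 0.26, SE 0.16, adjusted p = 0.825, with 0.26 in the lower and 0.38 in the higher bioC set), and a further probe set gave -0.20. Psmg1, the partner of Psmg2, was at -0.06. Without Tg 6 these 3 positive differences were 0.41, 0.32 and 0.23 for Psmg3, Psmg4 and Psmg2. They were 0.26, 0.56 and 0.17 in the same order without Tg 7. With the probe sets of a gene averaged, Psmg3 was at 0.54 and Psmg2 at 0.03. With the bioC sets as a block, Psmg3 was at 0.42, Psmg4 at 0.27 and Psmg2 at 0.32. The chaperones of the base differed by 0.11 for Psmd9 and by -0.09 for both Psmd10 and Psmd5, all with overlap.

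The lower values of rings, base and lid were shared by many genes in the same mice. Tg 5 was the lowest mouse for 18 of these 31 genes and non-Tg 2 the highest for 17, whereas over all genes tested Tg 5 was lowest in 17.7% and non-Tg 2 highest in 16.2%. Tg 5 was also the highest mouse in 22.9% of all genes, more than any other mouse. Tg 5 and non-Tg 2 had the highest and lowest array medians (6.74 and 6.49), and the bearing of this on the 31 genes was not tested. The median deviation of the 31 genes from their 6-mouse means was -0.17, -0.10 and 0.02 in Tg 5, 6 and 7, against 0.05, 0.15 and 0.05 in non-Tg 1, 2 and 3. Tg 7 thus lay near the non-Tg mice and Tg 5 farthest from them. With Tg 5 and non-Tg 2 left out together, an alternative chosen after seeing the data, the median difference of the 31 genes was -0.07 with 23 below 0. It was -0.16 within the lower bioC set, with 29 of 31 below 0, and -0.06 within the higher set, with 22 below 0.

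**Figure D4:**
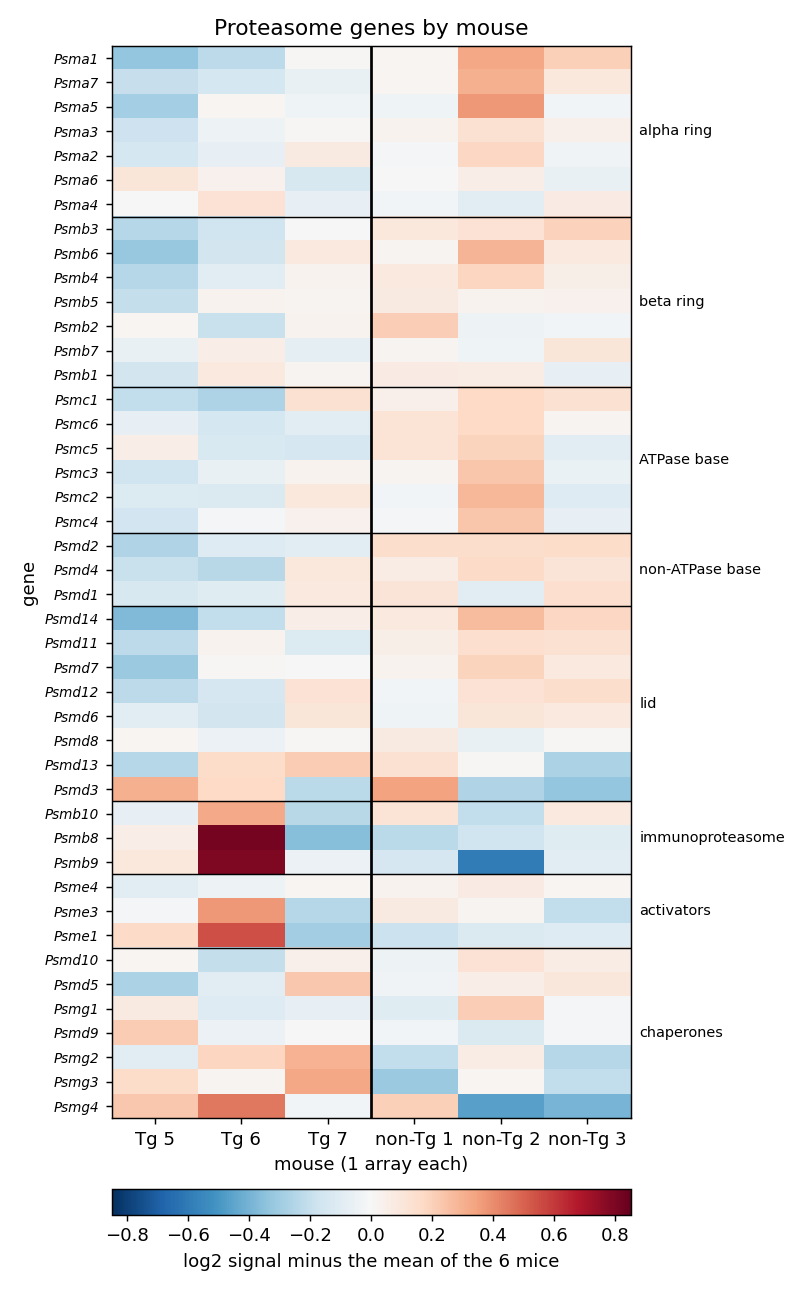
Deviation from the 6-mouse mean (log2, colour scale) of the 44 tested genes in rows by subcomplex, with Tg mice in the left columns. Tg 5 is lowest for 18 and non-Tg 2 highest for 17 of the 31 subunits of rings, base and lid, and Tg 6 is highest for all 3 immunoproteasome genes.

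Several genes had more than 1 usable probe set, which gives another reading of the same RNA. Apart from the ones used above, 34 probe sets of 21 genes passed the limit on signal, and 23 of them had the same sign as the one standing for the gene. Of the 18 with a mean log2 signal above 9, 14 had the same sign. The largest gap among bright probe sets was that of Psme3. A dim second probe set of Psmb8 gave 1.57, against 0.34 for the bright one.

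Other genes of the proteasome system, which the naming rule left out, had means on both sides of 0. Of 32 such genes 23 were tested, with 12 lower and 11 higher means in Tg livers, a median log2 difference of -0.03 and 0 at an unadjusted p under 0.05. The groups did not overlap for 4 of the 23, all lower in Tg livers (17.4%, against 5.64% of all genes): Nfe2l2, Vcp, Ubqln1 and Zfand5. Nfe2l1, the activator of subunit genes, had 10.04, 10.51 and 9.62 in Tg livers and 9.99, 9.74 and 9.91 in non-Tg livers, with overlap (difference 0.17, adjusted p = 0.888). Its relative Nfe2l2, the oxidative stress factor, had 11.27, 11.28 and 11.28 in Tg livers, against 11.50, 11.58 and 11.40 in non-Tg livers. The Tg mice were nearly identical and all below the non-Tg mice (difference -0.21, SE 0.11, adjusted p = 0.814). Pomp, the maturation factor of the core particle, had 12.33, 12.73 and 12.64 in Tg mice, against 12.68, 12.79 and 12.82 in non-Tg mice, with Tg 5 low (difference -0.20, adjusted p = 0.824). Psmf1, an inhibitor of the core particle, had 10.45, 10.37 and 10.21 in Tg mice, against 10.21, 10.06 and 10.32 in non-Tg mice (difference 0.14, adjusted p = 0.867).

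Of the remaining genes of that list with the smallest p, Akirin2, which escorts proteasomes into the nucleus, had 10.76, 11.03 and 11.12 in Tg mice, against 11.10, 11.23 and 11.33 in non-Tg mice (difference -0.25, adjusted p = 0.820). Tg 7 alone passed the lowest non-Tg value. Zfand5, an activator of the assembled particle, had 11.82, 11.88 and 11.71 in Tg livers, against 12.01, 11.90 and 12.05 in non-Tg livers, and the groups were apart (difference -0.19, adjusted p = 0.820). Ubqln4, a shuttle factor that brings ubiquitylated proteins to the proteasome, had 9.60, 10.03 and 9.75 in Tg livers, against 9.56, 9.65 and 9.33 in non-Tg livers, with overlap (difference 0.28, adjusted p = 0.824). The ubiquitin receptor Adrm1 was not analysed here. The 2 genes set apart at the start had differences of -0.73 for Psmc3ip (SE 0.69, adjusted p = 0.866) and -0.03 for Psme3ip1 (adjusted p = 0.979).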

How the data were processed

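Total RNA from each liver was hybridised to 1 array. Per the submitters' processing notes the values come from GCOS, the Affymetrix array software; no version or algorithm was stated. The deposited table holds log2 signals for 45101 probe sets, and on all 6 arrays the mean of the antilogged signals, trimmed by 2% at each end, was 500, a shared scale.

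After removing 64 control probe sets, 34945 had 1 symbol in the platform annotation, 932 several and 9160 none. Probe sets with a 6-array mean above the 40th percentile (log2 5.63) were kept, with nothing added to the signals, and the probe set of highest mean stood for each gene. Groups were compared with limma 3.58.1 (R 4.3.3; lmFit, eBayes with intensity trend, 2-sided; 4 residual degrees of freedom, 9.61 after moderation) and Benjamini-Hochberg adjustment over 12705 genes. An exact permutation test of 3 mice against 3 cannot give a p below 0.1. The procedure was tested on simulated data. Promoter motifs were counted in Python 3.11.15, and figures drawn with matplotlib 3.10.9.

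Each mouse counts as a replicate, since the labels speak of individual samples; the number of arrays limits the precision, and no detection calls were used. Every member may be named. Values per mouse are given for the 6 catalytic subunits, the 3 members of smallest p in each other subcomplex, Psmf1, Pomp, Nfe2l1, Nfe2l2, and the genes of smallest p in the neighbouring lists. The members and lists were chosen with earlier results of these data known. Alternatives were other added constants, filters, scalings, variance models and probe set rules, the bioC sets, and leaving out mice.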

Additional observations from a re-analysis of the deposited data

How the results depend on the processing

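No proteasome gene passed the adjusted threshold in the main comparison (7 had an unadjusted p under 0.05) or under any of the 21 alternatives; the smallest adjusted p was 0.397, without Tg 7. No paired analysis was possible because the groups share no replicate numbers. Of the 44 members, 14 had groups without overlap. Percentages in brackets give the share over all genes tested in the same setting, which was 11.7% in the main comparison. The member count was 3 with median centring (10.2% of all genes) and 9 with the mean of probe sets (11.3%). Within the lower and higher bioC sets, where fewer mice are compared, it was 34 (64.1%) and 36 (69.5%). On leaving out single mice it was 15 to 27, with 27 without Tg 7 (27.1%) and 18.6% to 25.6% of all genes without another mouse. The median difference of all 44 genes was -0.17 with median centring, which moved the median of all genes to -0.06. By subcomplex, the alpha ring median was -0.019 without Tg 5 and non-Tg 2 together, the beta ring -0.26 within the lower bioC set, the immunoproteasome -0.18 and the lid -0.0015 within the higher set. The non-ATPase base median was -0.11 with the mean of probe sets, -0.048 within the higher set and -0.32 to -0.16 on leaving out single mice. Leaving out single mice gave medians of 0.016 to 0.60 for the immunoproteasome, lowest without Tg 6, and -0.208 to -0.066 for the ATPase base. The chaperone median was 0.035 with median centring and also without Tg 5 and non-Tg 2 together, 0.029 with the mean of probe sets and 0.028 to 0.16 on leaving out single mice. The cause was not tested for any of these.

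Of 965 single-gene values under the alternatives, 901 kept their sign, and 23 genes kept it under all, of 46 that comprise the 44 members, Psmc3ip and Psme3ip1. Within the higher bioC set the sign changed for Psma2 (0.0061), Psma4 (-0.056), Psma6 (-0.13), Psmb1 (0.027), Psmb10 (-0.18), Psmb2 (0.064), Psmb8 (-0.22), Psmc2 (0.00059), Psmd1 (0.055), Psmd5 (0.15), Psmd6 (0.012), Psmd8 (0.0396), Psme1 (-0.18), Psme3 (-0.15) and Psme3ip1 (0.24); within the lower set for Psmd13 (-0.17), Psmd3 (-0.11) and Psmg1 (0.091). Without Tg 5 and non-Tg 2 together it changed for Psma2 (0.024), Psma5 (0.022), Psma6 (-0.019), Psmb1 (0.053), Psmb10 (-0.055), Psmc2 (0.048), Psmc3 (0.0019), Psmc4 (0.054), Psmd3 (-0.033), Psmd5 (0.035), Psmd9 (-0.0058) and Psme3ip1 (0.036). With the bioC sets as a block it changed for Psma6 (-0.033), Psmb10 (-0.082), Psmd3 (-0.0205), Psme3 (-0.025) and Psme3ip1 (0.022). Median centring turned Psma4 (-0.037), Psma6 (-0.071), Psmb10 (-0.066) and Psme3 (-0.0025), and the mean of probe sets Psma5 (0.013), Psma6 (-0.17), Psmb1 (0.083), Psmd13 (-0.026) and Psmd4 (0.21). Taking the probe set of smallest variance turned Psmd13 (-0.0069), and quantile normalization Psmd8 (0.017). On leaving out single mice, values straddled 0 for Psma4 (-0.015 to 0.083), Psma6 (-0.047 to 0.073), Psmb1 (-0.088 to 0.032), Psmb10 (-0.15 to 0.13), Psmc2 (-0.18 to 0.014), Psmd13 (-0.025 to 0.23), Psmd5 (-0.22 to 0.027), Psmd8 (-0.051 to 0.021), Psme3 (-0.093 to 0.21), Psme3ip1 (-0.16 to 0.067) and Psmg1 (-0.13 to 0.025). Nearly all of these genes had small main differences; Psma5, Psmb8, Psme1 and Psmd4 are the exceptions above 0.2 in size, and the cause was not tested.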
